A study of Mus musculus with 4 samples.

Results

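The mitosis genes are 45 genes whose products carry a cell from the end of DNA replication through chromosome segregation to cytokinesis, listed by their known roles at a time when earlier results of these data were known. They are mitotic cyclins and kinases, spindle checkpoint proteins, centromere and kinetochore proteins, spindle motors, cytokinesis factors and a few regulators of these. Each was found on the array through the RefSeq accession of its probe, and all 45 were measured, well above background on all 4 arrays, among 15088 named genes and 25081 genes and unnamed sequences tested. Total RNA of whole embryonic mouse kidneys was hybridised to 1-colour Agilent arrays, 2 of Sall1 knockout kidneys and 2 of control kidneys. The knockout kidneys came from embryos titled CreER KO, in which tamoxifen given at E12.5 was used to delete Sall1, and the control kidneys from embryos titled flox. All embryos were 129 and C57BL/6 hybrids whose kidneys were taken at E13.5, 24 hours after tamoxifen. CreER is a Cre recombinase that enters the nucleus only when bound by tamoxifen. The labels speak of Sall1CreER without saying which cells express the enzyme, do not say whether the controls carried it, and do not say whether an array holds 1 embryo or a pool, so an effect of CreER and one of Sall1 loss cannot be told apart. Every p-value below reflects only how much these samples vary, which may be technical.

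Sall1 is a zinc finger gene active in nephron progenitors, the cells of the cap mesenchyme that must divide to keep pace with the branching ureteric bud. Transcripts of mitosis genes are made late in the cell cycle. They are held down in resting and G1 cells by the DREAM complex and raised in G2 by B-Myb and FOXM1, which reach their promoters through an element named CHR (cell cycle genes homology region), while the factor NF-Y binds CCAAT boxes close by. Many of them serve as markers of dividing cells in tissue. In RNA of a whole organ, fewer dividing cells and less RNA per dividing cell cannot be told apart.

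The arrays carried kidney RNA by their markers, with all 14 nephron progenitor, 10 ureteric bud and 10 stroma markers above background. Sall1 itself had log2 signals of 1.03 and 1.06 in the knockout arrays, against 1.79 and 1.80 in the control arrays, a log2 difference of -0.75 ± 0.056 (SE; limma, adjusted p = 0.125). With a variance prior that follows the signal, trended and robust, the adjusted p of Sall1 was 0.00142 in limma, so its call depends on the prior. All log2 signals are relative to the 75th percentile of the array, and differences are knockout minus control. Nephron progenitor markers had a median log2 difference of -0.52. Of these, 11 of 14 were lower without overlap of the groups, against 27.4% of everything tested. With the prior that follows the signal 7 of these 14 passed, all lower, where 1.16% of everything tested passed in either direction. Markers of other tissues moved with the groups too, while 53.2% of everything tested had a difference below 0. The 11 liver and gut markers tested, of 12 listed, were all higher, and their summed signal in multiples of the 75th percentile was 44.3 and 40.9 in the knockout arrays, against 14.0 and 20.4 in the control arrays. Skeletal muscle markers, 11 of 12 tested and 10 of them higher, summed to 95.9 and 65.9 in the knockout arrays, against 55.6 and 25.0 in the control arrays, and the 7 macrophage and leukocyte markers tested, of 8 listed and all higher, to 9.45 and 8.05 in the knockout arrays, against 6.58 and 6.14 in the control arrays. Erythroid markers, 10 of 11 tested, summed to 1254 and 2183 in the knockout arrays, against 1082 and 1992 in the control arrays, so that the first array of each genotype had the lower sum. Cdx2 and Ckm, of the liver and gut and the muscle lists, did not clear background in both arrays of either genotype, and all markers counted as tested did in 1 or both. Median differences of the remaining lists were 0.11 for ureteric bud, 0.11 for stroma, 0.20 for endothelium and -0.14 for neuronal markers. What part these cells have in the values below was not tested.

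The question put to the mitosis genes was whether their transcripts differed a day after Sall1 was deleted. They were measured at nearly the same level in both genotypes. Over the 45 genes the median log2 difference was -0.083, against -0.011 over everything tested, and single genes ranged from -0.17 for Kif20a to 0.15 for Cdc25b, a fold of at most 1.13. All 45 differences lay within 0.2 of 0, as did 75.8% of all genes and unnamed sequences tested and 88.6% of the 11259 with a mean above the 75th percentile, a range that holds 40 of the 45. In limma 0 of 45 passed at an adjusted p under 0.05, with 0% of all genes passing, and the smallest adjusted p of a mitosis gene was 0.377, for Kif2c. With the prior that follows the signal, which called 1.16% of all genes, the count was again 0 of 45.

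**Figure D1:**
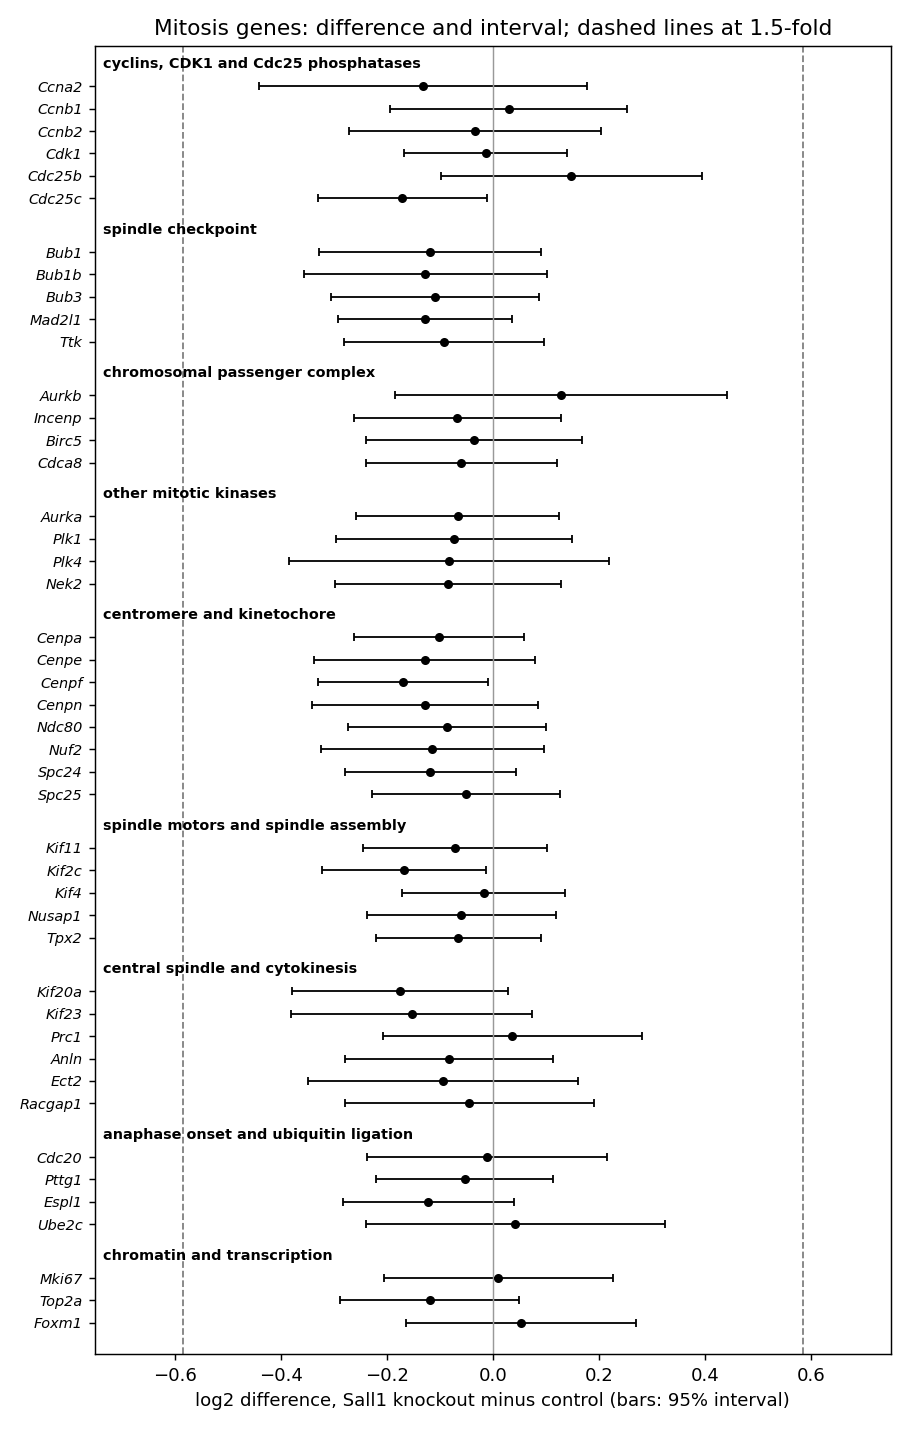
Log2 difference (knockout minus control, x axis) of each of the 45 mitosis genes, grouped by role, with the 95% interval of the limma fit as bars and dashed lines at 1.5-fold either way. All 45 intervals lie between the dashed lines, and 42 of them include 0.

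The intervals say how large a difference these arrays would still allow. The 95% interval of each gene, not adjusted over genes, lay inside a 1.5-fold change either way for all 45, and for 77.5% of everything tested (94.2% of those above the 75th percentile). The lowest bound was -0.44, for Ccna2, and the highest 0.44, for Aurkb. The half-width of the interval ranged from 0.15 to 0.31 with a median of 0.20, so a change of a mitosis gene of about the size of the median difference could not be detected with 2 arrays per genotype.

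Within this narrow range the differences leaned one way. The log2 difference was below 0 for 38 of 45 genes, against 53.2% of everything tested. The knockout pair lay wholly below the control pair for 25 genes (55.6% of the 45, against 27.4% of everything tested and 36.6% of those above the 75th percentile) and wholly above it for 1 gene, Cdc25b (2.22%, against 21.8%). At an unadjusted p under 0.05 there were 3 lower, Kif2c, Cdc25c and Cenpf (6.67%, against 5.84%), and 0 higher (against 6.85%). With the prior that follows the signal 5 were lower at an unadjusted p under 0.05 (Kif2c, Cdc25c, Kif20a, Mad2l1 and Top2a), or 11.1%, against 8.33%. The difference was larger than both gaps between arrays of 1 genotype for 16 of 45 genes, or 35.6%, against 35.8%. Under 3 other scalings 32 genes stayed lower and 4 higher, while Ccnb1, Ccnb2, Cdk1, Birc5, Plk4, Kif4, Prc1, Cdc20 and Mki67 turned under at least 1. The lean is therefore visible in the signs and in the overlap of the groups, and no single gene passed a test adjusted over all genes.

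**Figure D2:**
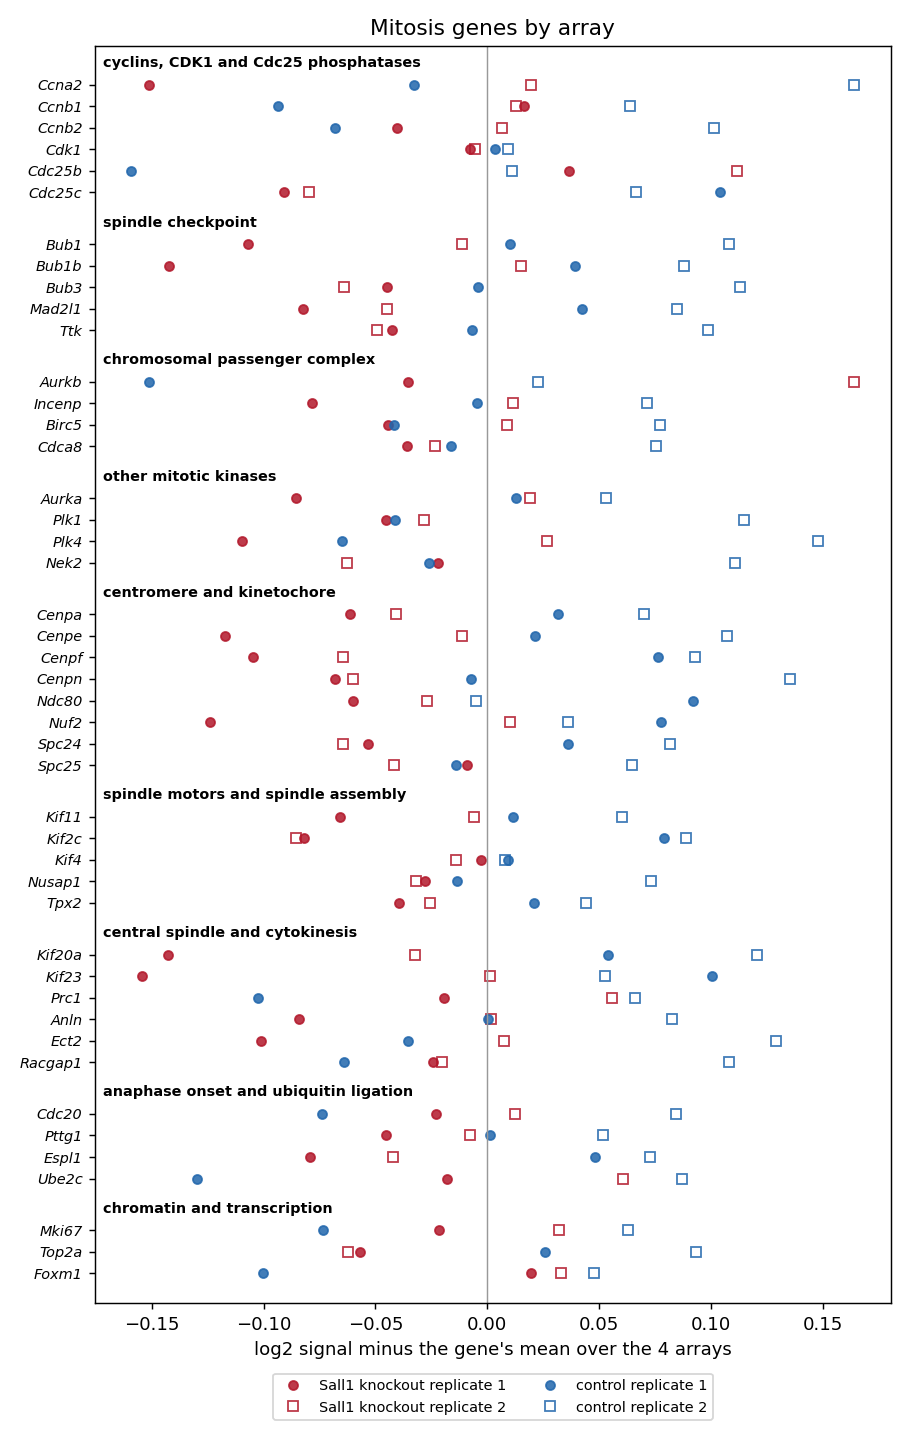
Log2 signal of each mitosis gene on each array, minus that gene's mean over the 4 arrays (x axis), grouped by role. Knockout arrays are red and control arrays blue, with filled circles for replicate 1 and open squares for replicate 2. Control replicate 2 is the highest array in 38 rows and knockout replicate 1 the lowest in 26, and the 2 genotypes separate in 26 of the 45 rows.

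Cdk1 and its B-type cyclins lay close to 0, with no common sign. Cdk1, the kinase that drives entry into mitosis, had log2 signals of 2.70 and 2.71 in the knockout arrays, against 2.72 and 2.72 in the control arrays, a difference of -0.013 ± 0.054 (SE). The 4 values lie within 0.02 of each other, the knockout pair just below the control pair. Cyclin B1, encoded by Ccnb1 and a partner of CDK1, had 4.10 and 4.10 in the knockout arrays, against 3.99 and 4.15 in the control arrays. Both knockout values fall between the control values (difference 0.030 ± 0.079). Ccnb2, for cyclin B2, differed by -0.033, and Ccna2, for cyclin A2, which acts in S phase and G2, by -0.13 ± 0.11, with overlap of the groups for both. The Cdc25 phosphatases remove the inhibitory phosphates from CDK1, and the differences of their genes had opposite signs. Cdc25c had -0.43 and -0.42 in the knockout arrays, against -0.23 and -0.27 in the control arrays, a difference of -0.17 ± 0.056 (unadjusted p = 0.0409, adjusted p = 0.379 in limma). Cdc25b had 2.08 and 2.16 in the knockout arrays, against 1.89 and 2.06 in the control arrays, a difference of 0.15 ± 0.087 (adjusted p = 0.521 in limma), and its lower knockout value is only slightly above the higher control value.

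All 5 spindle checkpoint genes were lower without overlap, as were 27.4% of everything tested and 36.6% of what lay above the 75th percentile, with differences of -0.092 to -0.13. Their products hold back anaphase until every kinetochore is attached to the spindle. Mad2l1, for the MAD2 protein that inhibits CDC20, had 3.23 and 3.26 in the knockout arrays, against 3.35 and 3.39 in the control arrays, a difference of -0.13 ± 0.058 (adjusted p = 0.456 in limma). Bub1, for a kinase at the kinetochore, had 1.90 and 2.00 in the knockout arrays, against 2.02 and 2.12 in the control arrays. Each knockout value is below both control values, by 0.02 for the closest pair. The differences of Bub1b, Bub3 and Ttk, which encode BUBR1, BUB3 and the kinase MPS1, were -0.13, -0.11 and -0.092. The median of the 5 was -0.12, and none passed.

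The chromosomal passenger complex, which corrects faulty attachments and then guides cytokinesis, showed differences of both signs. Its kinase gene Aurkb had -1.27 and -1.07 in the knockout arrays, against -1.38 and -1.21 in the control arrays, a difference of 0.13 ± 0.11, the least precise of the 45. The gap between the arrays of a genotype was larger there than the gap between genotypes. Birc5, for survivin, had 5.81 and 5.86 in the knockout arrays, against 5.81 and 5.93 in the control arrays, and the groups overlapped. Incenp and Cdca8, for the scaffold and for borealin, differed by -0.067 and -0.059. The other mitotic kinases overlapped between genotypes in every case. Plk1, for the polo-like kinase of centrosome maturation and mitotic entry, had 4.63 and 4.65 in the knockout arrays, against 4.63 and 4.79 in the control arrays. Aurka, for the Aurora kinase of the spindle poles, had 3.71 and 3.82 in the knockout arrays, against 3.81 and 3.85 in the control arrays. Control replicate 2 was the highest array for both. Plk4, which starts centriole duplication, differed by -0.083 and Nek2, which separates the centrosomes, by -0.085.

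The 8 centromere and kinetochore genes were all lower in the knockout kidneys by sign (53.2% of everything tested) and 7 of them without overlap (27.4% of everything tested, 36.6% above the 75th percentile), with a median of -0.12. Cenpf, for a large kinetochore protein of G2 and mitosis, had -2.80 and -2.76 in the knockout arrays, against -2.62 and -2.60 in the control arrays, a difference of -0.17 ± 0.056 (unadjusted p = 0.0428, adjusted p = 0.382 in limma). Its 2 genotypes are separated by 0.14, among the wider gaps of the 45. The signal of Cenpf was the weakest of the 45, and its difference was -0.045, -0.20 and -0.21 under the 3 other scalings. With the prior that follows the signal its unadjusted p was 0.222 in limma. Cenpa, the histone H3 variant that marks the centromere, had 3.48 and 3.50 in the knockout arrays, against 3.58 and 3.62 in the control arrays. Cenpe, a kinesin that carries chromosomes to the spindle equator, differed by -0.13 and Cenpn, which binds the centromeric nucleosome, by -0.13. The NDC80 complex ties kinetochores to microtubules and has 4 subunits. Ndc80 had 0.72 and 0.76 in the knockout arrays, against 0.87 and 0.78 in the control arrays, and Spc24 had 1.86 and 1.85 in the knockout arrays, against 1.95 and 2.00 in the control arrays. In both the knockout pair is below the control pair, for Ndc80 by 0.02 at the closest. Nuf2 differed by -0.11 and Spc25, the one subunit gene whose groups overlapped, by -0.051.

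Among spindle motors and assembly factors all 5 genes were lower without overlap, against the same 27.4% and 36.6%, with differences of -0.17 to -0.017, although Kif4 turned under another scaling. Kif2c, for the kinesin MCAK that takes microtubules apart at the centromere, had 0.00014 and -0.0033 in the knockout arrays, against 0.16 and 0.17 in the control arrays. The arrays of a genotype agree to 0.01, and Kif2c has the smallest unadjusted p of the 45 (difference -0.17 ± 0.054, unadjusted p = 0.0392, adjusted p = 0.377 in limma). The second Kif2c probe differed by -0.013. Kif11, for the motor Eg5 that pushes the spindle poles apart, had 0.57 and 0.63 in the knockout arrays, against 0.65 and 0.70 in the control arrays. Tpx2, which activates Aurora A on the spindle, had 2.81 and 2.83 in the knockout arrays, against 2.87 and 2.90 in the control arrays. Nusap1, a microtubule-binding protein of the spindle, differed by -0.060 and Kif4, a chromosome-bound kinesin, by -0.017. For Kif4, as for Cdk1, the groups separate although the difference is close to 0, since its 4 values span only 0.02.

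Genes of the central spindle and of cytokinesis held the most negative difference of all. Kif20a, for the kinesin MKLP2 that brings the passenger complex to the midzone, had 3.44 and 3.55 in the knockout arrays, against 3.64 and 3.71 in the control arrays, a difference of -0.17 ± 0.072 (adjusted p = 0.434 in limma). Kif23, for the kinesin MKLP1 of the same structure, differed by -0.15 ± 0.080. Both were lower without overlap, while the other 4 genes overlapped. Of everything tested 27.4% was lower without overlap, and 36.6% of what lay above the 75th percentile. Prc1, which bundles the midzone microtubules, had 3.83 and 3.91 in the knockout arrays, against 3.75 and 3.92 in the control arrays. Anln, for the actin-binding anillin of the cleavage furrow, had 3.09 and 3.18 in the knockout arrays, against 3.18 and 3.26 in the control arrays. Ect2, the exchange factor that activates RhoA there, differed by -0.093 and Racgap1, its partner, by -0.044.

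Of the 4 anaphase onset genes 2 were lower without overlap, against the same 27.4% and 36.6%. Espl1, for separase, the protease that opens cohesin, had 1.22 and 1.26 in the knockout arrays, against 1.35 and 1.38 in the control arrays, a difference of -0.12 ± 0.057 (adjusted p = 0.462 in limma), and Pttg1, for its inhibitor securin, differed by -0.053. Both were lower without overlap. Cdc20, the activator of the anaphase-promoting complex, had 4.79 and 4.82 in the knockout arrays, against 4.74 and 4.90 in the control arrays, and Ube2c, the ubiquitin-conjugating enzyme that works with this complex, had 4.02 and 4.10 in the knockout arrays, against 3.91 and 4.13 in the control arrays. For both the knockout values fall between the control values.

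The proliferation marker Mki67 differed little, and its genotypes overlapped. Mki67, which coats mitotic chromosomes, had 5.22 and 5.27 in the knockout arrays, against 5.16 and 5.30 in the control arrays, a difference of 0.011 ± 0.076 with a 95% interval of -0.20 to 0.23. The second Mki67 probe differed by -0.10. Top2a, for the topoisomerase that untangles sister chromatids, had 3.098 and 3.092 in the knockout arrays, against 3.181 and 3.248 in the control arrays, a difference of -0.12 ± 0.059 (adjusted p = 0.480 in limma), lower without overlap. Foxm1, for the forkhead factor that switches on many of these genes in G2, had 0.76 and 0.77 in the knockout arrays, against 0.64 and 0.78 in the control arrays, and the groups overlapped.

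For 14 genes more than 1 probe was read. The 18 probes not used were all well above background on all 4 arrays and differed by -0.20 to 0.21. Of these 14 were lower in the knockout arrays, and 13 had the sign of the probe used. The highest of them, 0.21, belongs to the third of 3 Cdk1 probes, and the lowest, -0.20, to the second Nuf2 probe. Both probes are faint, with mean log2 signals of -3.28 and -2.47, against 2.71 and 1.15 for the probes used. The other Cdk1 probe not used differed by -0.046. The probes of Birc5 differed by -0.036, -0.028 and -0.0035.

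The control arrays differed from each other by about as much as the genotypes did. Control replicate 2 was above control replicate 1 for 40 of the 45 genes, with a median gap of 0.086, and knockout replicate 2 was above knockout replicate 1 for 35, with a median gap of 0.037. The median deviation from each gene's mean over the arrays was -0.053 and -0.011 in the knockout arrays, against -0.0040 and 0.077 in the control arrays. The knockout arrays are thus both on the low side, but control replicate 1 is closer to knockout replicate 2 than to control replicate 2. Without control replicate 2 the median log2 difference was -0.033, with 25 genes lower and 10 higher without overlap, where 38.2% of everything tested was lower and 36.0% higher without overlap. Without control replicate 1 it was -0.12, with 43 lower and 1 higher, where 42.3% of everything tested was lower and 33.0% higher without overlap. Further mitosis genes and DNA replication genes had their highest median deviation in control replicate 2 and their lowest in knockout replicate 1, as the 45 did.

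**Figure D3:**
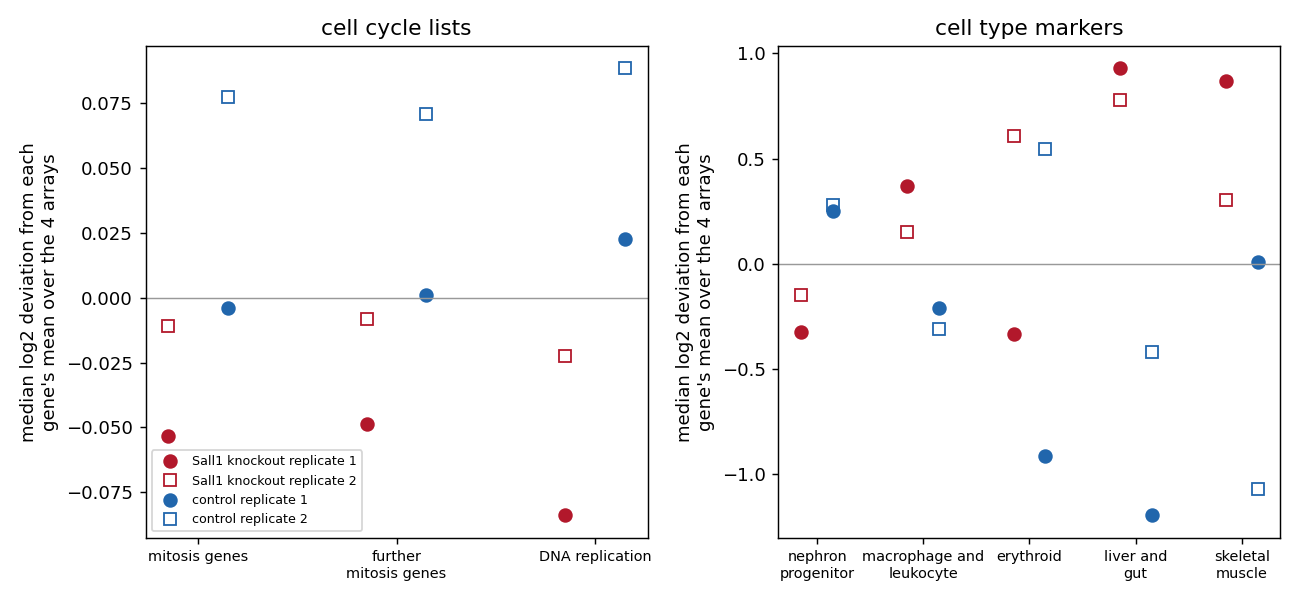
Median, over the genes of a list, of each array's log2 deviation from the gene's mean over the 4 arrays (y axis), for cell cycle lists on the left and cell type markers on the right, with separate scales. Knockout arrays (red) stand left of control arrays (blue), filled circles are replicate 1 and open squares replicate 2. The 45 mitosis genes span -0.053 to 0.077, while liver and gut markers span -1.20 to 0.93.

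Other genes of cell division showed differences mostly of the same small size. Of 63 further mitosis genes tested, from a list of 64 that shares no gene with the 45, 51 were lower and 12 higher by sign. Of everything tested 53.2% was lower by sign. The median of the 63 was -0.074, and 0 passed in limma. At an unadjusted p under 0.05, 2 were lower and 1 higher, against 5.84% and 6.85% of everything tested. Cenpw and Cenph, subunits of the inner kinetochore, were below the range of the 45. Cenpw had 2.37 and 2.52 in the knockout arrays, against 2.97 and 2.99 in the control arrays, a difference of -0.53 ± 0.076 (adjusted p = 0.217 in limma). Cenph had 1.88 and 1.75 in the knockout arrays, against 2.14 and 2.20 in the control arrays, a difference of -0.35 ± 0.074 (adjusted p = 0.289 in limma). The genotypes do not overlap for either gene. With the prior that follows the signal Cenpw passed (adjusted p = 0.0109 in limma), the one call among the 63, and Cenph had an adjusted p of 0.0510 in limma. Knstrn, for the kinetochore protein kinastrin, was the one at an unadjusted p under 0.05 in the other direction (0.24 ± 0.085), and Knl1, the kinetochore scaffold, differed by -0.21 ± 0.074. Knstrn thus lay above the range of the 45 and Knl1 below it.

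The anaphase-promoting complex, the ubiquitin ligase that ends mitosis, had a median of -0.045 over 15 of 16 genes, with 0 at an unadjusted p under 0.05. Its 4 smallest p-values belong to Anapc1 (-0.16), Anapc11 (0.10), Cdc26 (-0.10) and Cdc27 (-0.12). Regulators that act on CHR promoters and their E2F partners had a median of -0.10 over 14 genes. At an unadjusted p under 0.05, 3 were lower and 1 higher, against 5.84% and 6.85% of everything tested. Lower by value were Tfdp1 (-0.22 ± 0.067), Tfdp2 (-0.18 ± 0.055) and E2f5 (-0.20 ± 0.067), which encode dimer partners of the E2F family and an E2F repressor. Higher by value was Rbl2 (0.21 ± 0.064), for the pocket protein p130 of the DREAM complex in resting cells. None of these passed with either prior in limma, with adjusted p in the fit reported from 0.364 to 0.383.

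Genes of DNA replication leaned lower as the mitosis genes did, with 35 of 36 below 0 and a median of -0.10. Of everything tested 53.2% was below 0. Lower without overlap were 26 of the 36, against 27.4% of everything tested and 36.6% of what lay above the 75th percentile. With either prior 0 passed. At an unadjusted p under 0.05, 4 were lower and 0 higher, against 5.84% and 6.85% of everything tested. They were Orc6, of the origin recognition complex (-0.26 ± 0.060), the clamp loader gene Rfc3 (-0.19 ± 0.055) and the helicase genes Mcm7 (-0.21 ± 0.063) and Mcm3 (-0.18 ± 0.061). G1 cyclins, kinases and E2F genes had a median of -0.022 over 14 genes. Among these Mycn, for a MYC factor of the nephron progenitors, had 2.45 and 2.47 in the knockout arrays, against 2.71 and 2.81 in the control arrays, a difference of -0.30 ± 0.067, lower without overlap (adjusted p = 0.300, and 0.0576 with the prior that follows the signal, in limma). Cdk6, for a kinase partner of D-type cyclins, was well above background in both control arrays and not well above it in either knockout array. Its measured difference is therefore given only as a bound, 1.34-fold lower or more on these arrays (limma, adjusted p = 0.343). That bound sets the control mean against the higher, on each knockout array, of its own signal and the lowest signal of any probe well above background. It concerns the measured means and is not a confidence limit, and the 2 control arrays differed by 0.41. Ccne1, for cyclin E1, differed by -0.17 ± 0.060 and Myc by -0.26 ± 0.12.

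CDK inhibitors and p53 response genes were the one cell cycle list with a median above 0. Of 12 tested, of 14 listed, 9 were higher and 3 lower by sign, with a median of 0.087 and a lowest difference of -0.18. Of everything tested 53.2% was lower by sign. Without overlap 6 were higher and 2 lower, against 21.8% and 27.4% of everything tested. At an unadjusted p under 0.05, 4 were higher, against 6.85%. The summed signal of the list was lower in the knockout arrays, with 127 and 119, against 137 and 128 in the control arrays. Cdkn1a, for the CDK inhibitor p21, had -0.16 and -0.35 in the knockout arrays, against -0.81 and -0.82 in the control arrays, a difference of 0.56 ± 0.089 (adjusted p = 0.233 in limma). Ccng1, for cyclin G1, a target of p53, had 0.53 and 0.58 in the knockout arrays, against 0.17 and 0.17 in the control arrays, a difference of 0.38 ± 0.057 (adjusted p = 0.221 in limma). The knockout pair is above the control pair for both. With the prior that follows the signal both passed, with an adjusted p of 0.0339 for Cdkn1a and 0.0383 for Ccng1 in limma, the 2 calls among the 12. Trp53inp1 differed by 0.28 ± 0.059 and the CDK4 and CDK6 inhibitor gene Cdkn2c by 0.26 ± 0.090. Genes of the primary cilium and of quiescence, present in resting cells, had a median of -0.053 over 10 genes with 0 at an unadjusted p under 0.05, and the 4 with the smallest p differed by -0.11 for Bbs4, -0.11 for Ift20, 0.088 for Pkd1 and -0.093 for Ccng2.

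**Figure D4:**
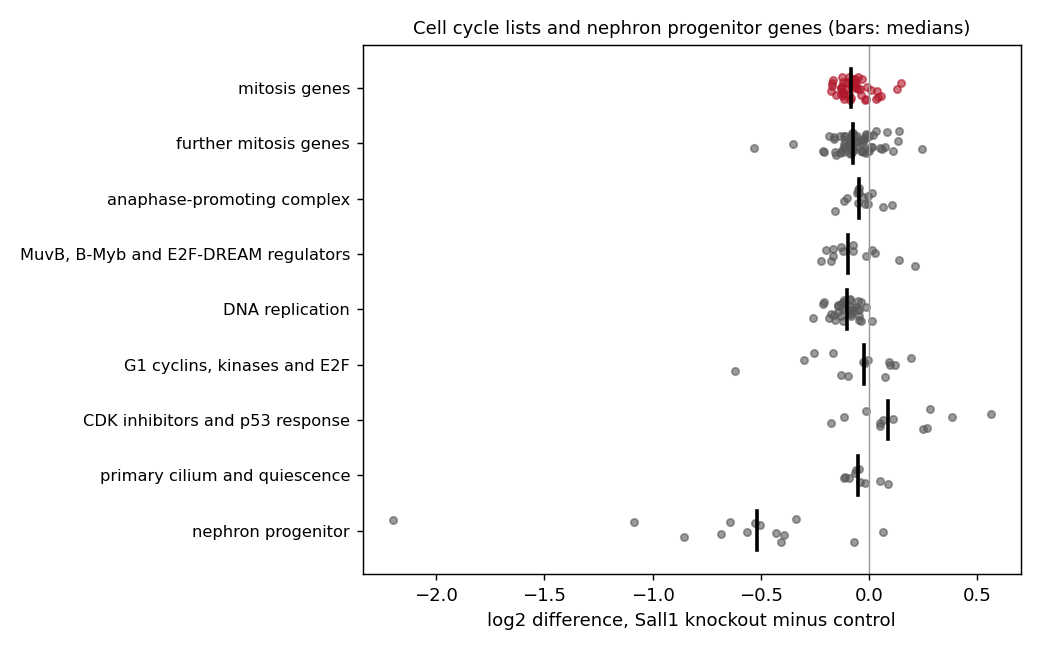
Log2 difference (knockout minus control, x axis) of each gene of the cell cycle lists and of the nephron progenitor markers, with vertical bars at the list medians. The 45 mitosis genes (red) lie between -0.17 and 0.15, and the nephron progenitor markers reach -2.20. The lowest point of the G1 list is Cdk6, drawn at its measured difference although not well above background in the knockout arrays.

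The promoters of the mitosis genes share the elements named at the start. RefSeq promoters of build GRCm38.p6, running from 250 bases before to 50 bases after the start, were found for 37 of the 45 genes, and none was used for Aurkb, Ccna2, Cdc25c, Foxm1, Incenp, Kif20a, Spc24 and Tpx2. The CHR was searched as TTTGAA or TTCGAA and the CCAAT box as CCAAT, each on both strands. They can overlap each other by a base or more. A CHR was found in 28 of 37 genes (75.7%), against 21.7% of the 27025 genes with a promoter, and a CCAAT box in 28 of 37 (75.7%), against 41.1%. Both stood in the same promoter in 25 of 37 (67.6%), against 8.61%.

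Below are 5 promoters with both elements and 1 with neither, chosen to set genes with larger and smaller differences side by side. Letters in capitals are matches to a CHR or a CCAAT box on either strand. Cenpf (chr1:189688037-189688336 on the minus strand), Espl1 (chr15:102296043-102296342 on the plus strand) and Top2a (chr11:99024140-99024439 on the minus strand) were lower without overlap. Cdk1 (chr10:69352863-69353162 on the minus strand) and Mki67 (chr7:135716330-135716629 on the minus strand) were among the genes nearest to 0. Cdk1, too, was lower without overlap, while the groups overlapped for Mki67. Mad2l1 (chr6:66534971-66535270 on the plus strand) has neither element in this window and was lower without overlap.
Cenpf: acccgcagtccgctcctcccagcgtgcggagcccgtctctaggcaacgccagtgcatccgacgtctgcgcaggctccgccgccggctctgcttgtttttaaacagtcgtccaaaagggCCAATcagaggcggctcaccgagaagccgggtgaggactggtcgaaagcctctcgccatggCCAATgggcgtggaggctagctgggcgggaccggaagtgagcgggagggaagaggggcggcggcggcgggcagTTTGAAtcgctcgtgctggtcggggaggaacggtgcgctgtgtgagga
Espl1: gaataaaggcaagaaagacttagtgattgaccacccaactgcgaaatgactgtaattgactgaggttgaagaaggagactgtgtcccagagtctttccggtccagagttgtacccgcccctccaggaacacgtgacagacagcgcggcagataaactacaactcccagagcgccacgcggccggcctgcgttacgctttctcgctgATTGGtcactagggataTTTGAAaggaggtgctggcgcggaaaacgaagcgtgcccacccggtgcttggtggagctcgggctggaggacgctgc
Top2a: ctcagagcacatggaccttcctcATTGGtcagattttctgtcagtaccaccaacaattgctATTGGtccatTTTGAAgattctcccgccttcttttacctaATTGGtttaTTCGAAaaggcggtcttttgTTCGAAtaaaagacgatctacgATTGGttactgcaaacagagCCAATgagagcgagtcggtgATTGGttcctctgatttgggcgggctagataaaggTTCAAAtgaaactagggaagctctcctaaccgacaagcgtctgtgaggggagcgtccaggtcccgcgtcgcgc
Cdk1: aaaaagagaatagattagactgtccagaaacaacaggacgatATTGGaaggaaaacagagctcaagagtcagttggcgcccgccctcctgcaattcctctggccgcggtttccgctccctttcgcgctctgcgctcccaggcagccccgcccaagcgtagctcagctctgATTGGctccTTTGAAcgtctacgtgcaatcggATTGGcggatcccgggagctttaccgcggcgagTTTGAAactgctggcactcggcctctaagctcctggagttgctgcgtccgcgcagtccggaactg
Mki67: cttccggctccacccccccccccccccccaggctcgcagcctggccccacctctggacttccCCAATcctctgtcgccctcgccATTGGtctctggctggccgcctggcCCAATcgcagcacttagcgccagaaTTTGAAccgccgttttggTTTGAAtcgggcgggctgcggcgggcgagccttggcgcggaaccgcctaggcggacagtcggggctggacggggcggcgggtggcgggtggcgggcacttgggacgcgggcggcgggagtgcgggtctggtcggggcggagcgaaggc
Mad2l1: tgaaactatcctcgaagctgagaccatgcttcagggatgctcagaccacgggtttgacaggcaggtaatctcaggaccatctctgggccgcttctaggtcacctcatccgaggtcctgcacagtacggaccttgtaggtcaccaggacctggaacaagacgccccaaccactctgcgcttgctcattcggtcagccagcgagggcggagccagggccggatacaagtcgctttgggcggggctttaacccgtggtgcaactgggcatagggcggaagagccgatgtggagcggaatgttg

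Medians were close to each other whatever the elements found. The median log2 difference was -0.072 for the 25 genes with both and -0.071 for the 6 with neither (Mad2l1, Birc5, Plk4, Nuf2, Nusap1 and Pttg1). It was -0.087 for the 3 with a CHR only (Ndc80, Kif2c and Anln) and -0.085 for the 3 with a CCAAT box only (Ccnb1, Nek2 and Cenpe). Lower without overlap were 14 of the 25 genes with both and 4 of the 6 with neither. So were 2 of the 3 with a CHR only, 1 of the 3 with a CCAAT box only and 4 of the 8 with no promoter entry. Of everything tested 27.4% was lower without overlap, and 36.6% of what lay above the 75th percentile. A match is a run of letters and not a measured binding site, and its absence concerns this window only.

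**Figure D5:**
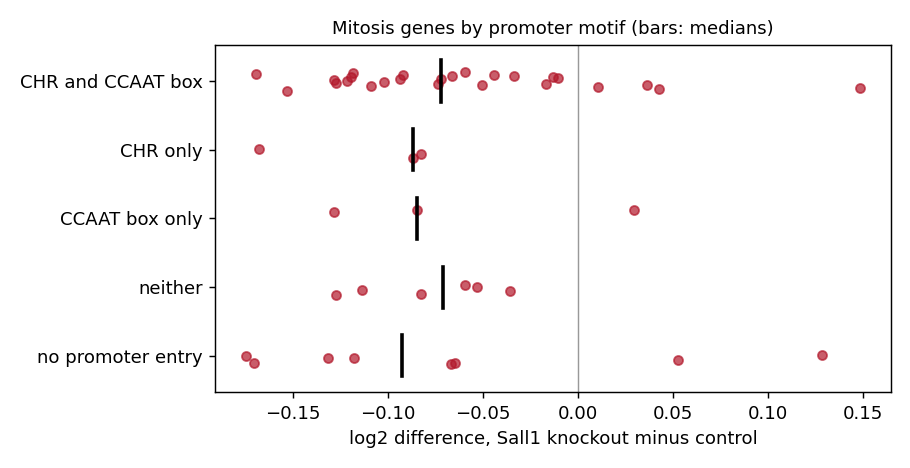
Log2 difference (knockout minus control, x axis) of the 45 mitosis genes by the elements found in their promoter, with vertical bars at the medians. The ranges of the 5 classes overlap in part, with medians between -0.092 and -0.071. The classes with a CHR only and with a CCAAT box only hold 3 genes each.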

How the data were processed

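Labelled RNA of 2 Sall1 knockout and 2 control kidney samples was hybridised to 1-colour arrays. The deposited processed signal is an intensity, corrected for background and trend with Agilent Feature Extraction 10.7.3.1 (design 028005, build mm9), and not scaled across the 4 arrays, per the file headers. A series value table, also deposited, gives this intensity again. Of 62976 spots per array 59305 were not controls, 60.6% to 64.2% of those were well above background and 0 saturated. The number of arrays limits the precision.

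Signals were divided by the array's 75th percentile (535 and 523 for knockout, 600.0 and 549 for control arrays) and set to log2. Outlier spots were left out and spots of a probe averaged. Probes were kept if both arrays of a genotype had them well above background, and the brightest represented its gene. Symbols came from RefSeq accessions (GRCm38.p6): 26413 of 55681 probes matched. Limma 3.58.1 in R 4.3.3 (lmFit, eBayes, two-sided) was adjusted by Benjamini-Hochberg over 25081 genes and sequences, with 2 residual and 1.80 prior degrees of freedom, and was tested on simulated data. Members, lists and tests were chosen with earlier results of these data known. Named were all members, 20 chosen by role and the 8 with the smallest p with array values, up to 4 genes of each other cell cycle list by p, and Sall1. Cell type markers are given as lists.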

Additional observations from a re-analysis of the deposited data

How the results depend on the processing

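No setting called a mitosis gene at an adjusted p under 0.05, and the smallest adjusted p of a member over the alternatives was 0.213, with the trended and robust variance prior. Over all genes tested the count called was 0 in the fit reported, 37 with normexp background correction (offset 50, on the median spot signal), 291 with the trended and robust prior (135 higher and 156 lower) and 27 at an adjusted p under 0.1. Sall1, Cenpw, Cdkn1a and Ccng1 passed with the trended and robust prior and not in the fit reported. The cause was not tested. The median log2 difference of the 45 genes stayed below 0 in every alternative run, from -0.12 (without control replicate 1, and with median centring) to -0.033 without control replicate 2. It was -0.077 with normexp correction and -0.062 with quantile normalization. With median centring the median of everything tested was -0.050 itself. The count without overlap was 26, and between 22 and 30 with the other scalings, filters, probe rules and sources. It was 29 to 44 with 1 array left out, where 1 array stands for a genotype. The share of everything tested moved too. Lower without overlap was 27.4% in the fit reported, 20.3% to 35.2% with those other settings and 38.2% to 42.3% with 1 array left out. Higher without overlap was 21.8%, 15.7% to 27.8% and 33.0% to 36.0%. Of the members 30 were lower and 2 higher in all 14 alternatives, and the other 13 changed sign in at least 1. Not all 14 could turn a sign, since another variance prior leaves the differences as they are. Array weights, the 2 other background filters and marked spots kept also gave the same median of -0.083 with 38 below 0. Under normexp, quantile or median scaling 9 turned: Ccnb1, Ccnb2, Cdk1, Birc5, Plk4, Kif4, Prc1, Cdc20 and Mki67. Single values over all alternatives ran from -0.23 to 0.23. No paired analysis was possible because the labels give the genotypes no shared replicate numbers.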
